A study of Macaca mulatta with 24 samples.

Results

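NRF2, encoded by NFE2L2, is the transcription factor that switches on much of the antioxidant defence of a cell. KEAP1 holds NRF2 in the cytoplasm and directs its degradation, and oxidised or electrophilic molecules loosen that hold, so that NRF2 reaches the nucleus and raises transcription of enzymes that break down haem, reduce quinones and make or recycle glutathione and thioredoxin. Much of this control acts on the NRF2 protein, which RNA levels do not show. In the brain, NRF2 activity is best known from glia, in particular astrocytes. The genes followed here were picked by symbol and are NFE2L2 and KEAP1, the haem oxygenase genes HMOX1 and HMOX2, the quinone reductase NQO1, both subunits of the enzyme that starts glutathione synthesis (GCLC and GCLM), the thioredoxin reductase TXNRD1, and the superoxide dismutases SOD1 and SOD2. They make up 10 of the 17208 genes measured, and each of the 10 averaged above 1 TPM (a unit that gives the share of a gene's transcripts in all transcripts, corrected for gene length).

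The tissue was the core of the nucleus accumbens (NAcc) of 24 unrelated adult male rhesus macaques, each measured once by RNA-Seq. Drinking animals had 12 months of open access, for 22 h per day, to 4% (w/v) ethanol beside water, after schedule-induced training with ethanol, and were sampled without an imposed period of abstinence. The 8 controls went through the same procedures with water on both spouts and a 10% maltose dextrin solution that matched calories. The 8 LD* animals were labelled low drinkers and took 0.47 to 2.07 g/kg of ethanol per day, and the 8 HD* animals took 2.74 to 3.78 g/kg per day, of which 4 were labelled heavy (HD) and 4 very heavy (VHD) drinkers. The animals belonged to cohorts 4 (2 LD*), 5 (3 controls, 4 HD*), 7a (2 controls, 3 LD*, 4 HD*) and 7b (3 controls, 3 LD*).

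Markers of striatal projection neurons (10 of 10 listed genes measured) fitted the labelled tissue in 23 animals, with PPP1R1B, which encodes the dopamine signalling protein DARPP-32, at 1051 to 3926 TPM. The library of Control 6 stood apart, with PPP1R1B at 304 TPM, DRD1 at 8.14 TPM against 53.4 to 274 TPM in the others, and the highest oligodendrocyte markers. Values of the antioxidant genes are therefore also given without this animal where they rest on it. Pairwise correlations of log2(TPM + 1) ran from 0.821 to 0.990. The number of reads behind each value is unknown, so no counting error is given. This was bulk tissue, in which fewer cells of a type and less RNA per cell cannot be told apart.

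The 10 genes differed widely in level. SOD1, the copper and zinc dismutase of the cytosol, was the most abundant at 812 ± 81.4 TPM (mean ± SD, n = 24). HMOX2, the haem oxygenase that neurons make without induction, followed at 249 ± 50.9 TPM, and SOD2, the manganese dismutase of mitochondria, at 108 ± 19.3 TPM. KEAP1 at 72.5 ± 8.15 TPM and NFE2L2 at 67.1 ± 16.7 TPM were close neighbours, less than 1 SD apart. TXNRD1 had 42.9 ± 8.97 TPM, NQO1 29.0 ± 12.1 TPM and GCLC, the catalytic subunit of glutamate-cysteine ligase, 26.0 ± 5.73 TPM, and neighbouring genes in this part of the order overlapped widely between animals. HMOX1, the inducible haem oxygenase, had 15.8 ± 5.09 TPM, and GCLM, the modifier subunit of the ligase, was lowest at 8.99 ± 2.02 TPM. Relative spread between animals, as the SD in percent of the mean, was largest for NQO1 (41.9%) and HMOX1 (32.3%) and smallest for SOD1 (10.0%) and KEAP1 (11.2%), beside a median of 23.6% over all genes tested.

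**Figure D1:**
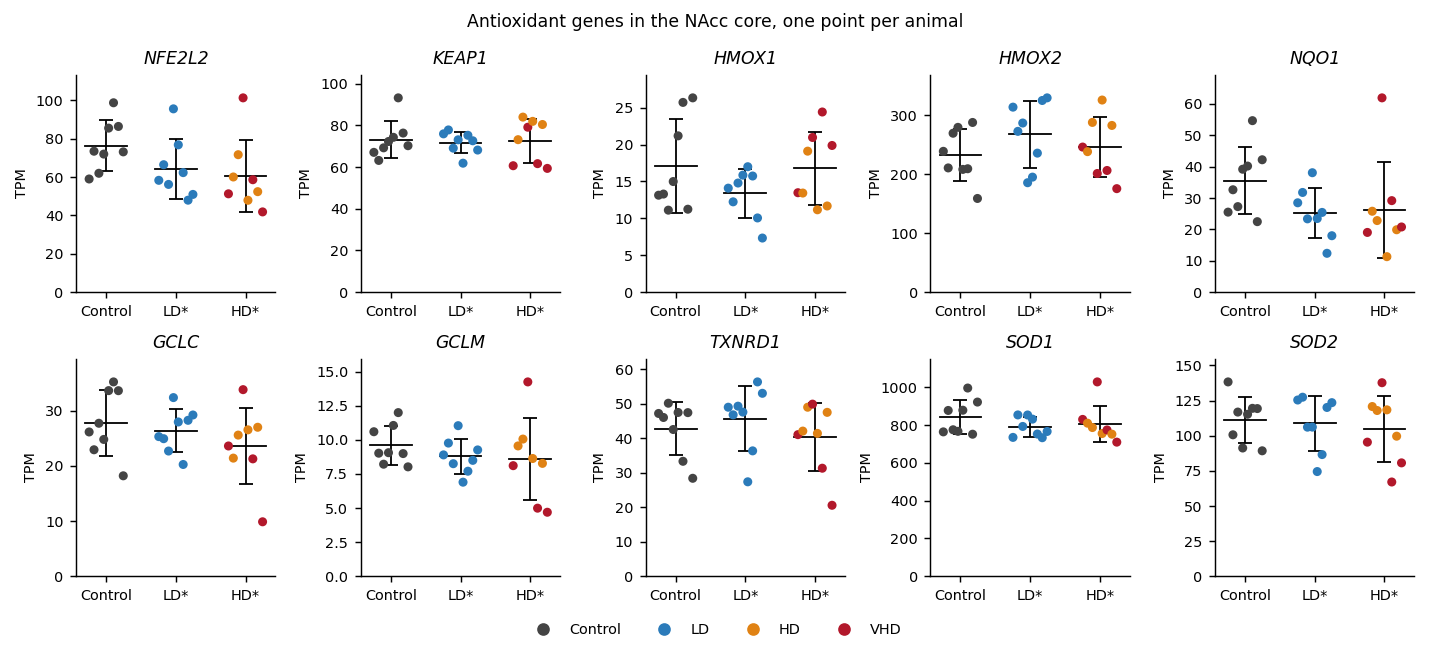
TPM of each antioxidant gene in the NAcc core of 24 animals, by group (points: animals, coloured by drinking label; horizontal lines and bars: mean and SD of 8 animals). The groups overlapped for every gene, and VHD 2 lay above the other HD* animals for NFE2L2, NQO1, GCLC, GCLM, TXNRD1, SOD1 and SOD2.

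No antioxidant gene passed between groups after adjustment for all genes, in a limma test that called no gene at all in these comparisons. The study, with generalized linear models in DESeq2, did report genes at an FDR under 0.05. It found them for HD* animals against controls and for HD* against LD* animals. The test used here did not recover that result, so 0 of 10 does not show that the groups were alike. At an adjusted p under 0.05, 0 of the 10 genes passed between HD* animals and controls, where 0.0% of the 13637 genes tested passed, 0 of 10 between LD* animals and controls (0.0% of all genes) and 0 of 10 between HD* and LD* animals (0.0% of all genes; limma on log2(TPM + 1), n = 8 each). At an unadjusted p under 0.05 there was 1 of 10 between HD* animals and controls (NFE2L2, lower in HD* animals), against 5.68% of all genes (5.29% lower), and 0 of 10 in the LD* comparison with controls and in HD* against LD* (2.84% and 1.08% of all genes). With cohort as a covariate, or after TMM rescaling, which sets libraries to a common level using genes of moderate change, NFE2L2 was no longer among them and 0 of 10 remained for HD* animals against controls. In the other comparisons the cohort covariate added genes at an unadjusted p under 0.05. It gave 1 of 10, lower in LD* animals than in controls, beside 298 of all 13637 genes (252 lower). It gave 1 of 10, higher in HD* than in LD* animals, beside 656 of all genes (126 higher). The split of all genes at an unadjusted p under 0.05 was 54 higher and 721 lower in HD* animals as deposited and 263 higher and 235 lower after TMM. No antioxidant gene had groups that did not overlap in these comparisons, a pattern found in 0.0%, 0.0% and 0.00733% of all genes.

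NFE2L2 was the gene with the smallest p between HD* animals and controls. Controls had a lowest, median and highest value of 59.0, 73.3 and 98.8 TPM, LD* animals of 48.0, 60.3 and 95.6 TPM and HD* animals of 41.9, 55.5 and 101 TPM. All groups overlapped, and 1 HD* animal, VHD 2, had the highest value of the 24. Group means were 76.3 ± 13.3, 64.4 ± 15.5 and 60.7 ± 18.7 TPM. The Log2 fold change of HD* against controls was −0.36 (SE 0.16, 95% interval −0.68 to −0.034, adjusted p = 0.706, limma), and that of LD* against controls −0.26 (SE 0.16, adjusted p = 1.00, limma). These differences missed the threshold by a wide margin, and the first was −0.30 without Control 6, −0.23 after TMM rescaling and −0.095 with TMM and cohort together, an alternative chosen after seeing the data.

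The HD* comparison of NFE2L2 is given by cohort for cohorts 5 and 7a, the only ones with both HD* animals and controls. In cohort 5 the 3 controls had 59.0, 73.5 and 62.0 TPM and the 4 HD* animals 51.3, 60.1, 71.7 and 101 TPM, a Log2 fold change of 0.091. In cohort 7a the 2 controls had 86.4 and 73.2 TPM and the 4 HD* animals 47.9, 58.7, 52.4 and 41.9 TPM, a Log2 fold change of −0.66. All 4 HD* animals thus lay below both controls in cohort 7a but not in cohort 5. The difference between these effects did not pass, at −0.75 (SE 0.32, adjusted p = 1.00, limma), at which 1 of the 10 genes and 2.16% of all genes reached an unadjusted p under 0.05. With cohort as a covariate the pooled Log2 fold change was −0.22 (SE 0.16, adjusted p = 0.766, limma).

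KEAP1, the partner that holds NRF2 back, varied little. Lowest, median and highest values were 63.2, 71.3 and 93.2 TPM in controls, 61.9, 72.8 and 77.8 TPM in LD* and 59.4, 76.1 and 84.0 TPM in HD* animals, with the highest value in Control 6. HD* animals differed from controls by a Log2 fold change of −0.018 (95% interval −0.21 to 0.17, adjusted p = 0.941, limma), whose sign turned with TMM rescaling (0.11), with cohort as a covariate (0.0093) and without Control 6 (0.032). The log2 ratio of NFE2L2 to KEAP1 within an animal, taken as the difference of their log2(TPM + 1), averaged 0.049 ± 0.15 (SD) over controls, −0.18 ± 0.35 over LD* and −0.29 ± 0.35 over HD* animals. HD* animals differed from controls by −0.34 (two-sided exact permutation over all assignments, p = 0.0246, 0.368 after adjustment over 15 ratio comparisons). Without VHD 2 it was −0.43 and passed (exact permutation, adjusted p = 0.0186). None of the 15 comparisons of 5 ratios passed with all animals.

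NQO1, which reduces quinones and is widely used as a readout of NRF2 activity, had the largest Log2 fold changes of the 10 genes in both drinking groups against controls. Controls had a lowest, median and highest value of 22.5, 35.9 and 54.7 TPM, LD* animals of 12.4, 24.5 and 38.1 TPM and HD* animals of 11.3, 21.8 and 61.9 TPM. Most drinking animals of both groups lay below the control median, yet VHD 2 at 61.9 TPM was above every control. The Log2 fold change was −0.51 in HD* animals (SE 0.25, 95% interval −1.03 to 0.0011, adjusted p = 0.706, limma) and −0.49 in LD* animals (SE 0.25, adjusted p = 1.00, limma), both against the same controls. Neither passed. With cohort as a covariate they were −0.29 and −0.58 (adjusted p = 0.766 and 0.999, limma), the HD* difference was −0.39 after TMM rescaling and −0.17 with both, and it was 0.031 within cohort 5 and −0.65 within cohort 7a. Without Control 6, the highest control, the Log2 fold changes of NQO1 were −0.42 in HD* and −0.40 in LD* animals. Mean astrocyte and oligodendrocyte markers were also lower in both drinking groups. Summed levels were 5424 ± 2153 and 4673 ± 2462 TPM for controls, 4168 ± 1473 and 3425 ± 1883 TPM for LD* and 4568 ± 1721 and 3556 ± 1048 TPM for HD* animals. Control 6 had the highest sums of the 24 animals, 9313 and 10075 TPM, and weighs on these control means. The part of these markers in the NQO1 and NFE2L2 differences was not tested.

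**Figure D2:**
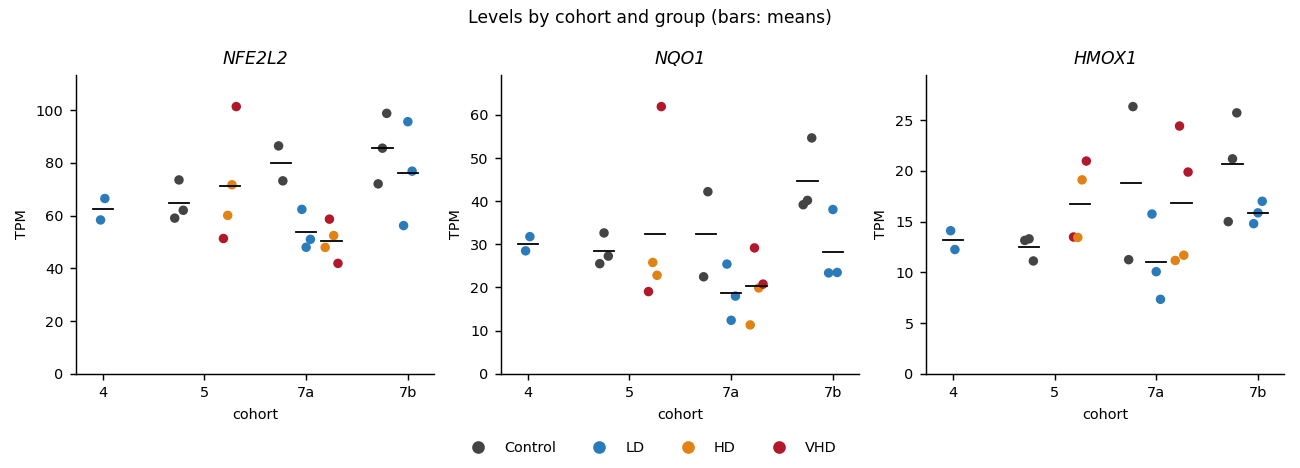
TPM of NFE2L2, NQO1 and HMOX1 by cohort and group (points: animals, coloured by drinking label; short lines: means of the animals of a group in a cohort). In cohort 7a the 4 HD* animals lay below both controls for NFE2L2, and in cohort 5 they spanned the controls.

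The haem oxygenases, which split haem into biliverdin, iron and carbon monoxide, showed no group difference. HMOX1 had a lowest, median and highest value of 11.1, 14.1 and 26.3 TPM in controls, 7.34, 14.4 and 17.0 TPM in LD* and 11.2, 16.3 and 24.4 TPM in HD* animals. The groups lay over one another. Its Log2 fold change was −0.0050 for HD* against controls (95% interval −0.42 to 0.41, adjusted p = 0.994, limma), turning to 0.12 with TMM rescaling, and −0.30 for LD* against controls (SE 0.20, adjusted p = 1.00, limma). HD* lay 0.29 above LD* animals (SE 0.20, adjusted p = 0.937, limma), and 0.59 above with cohort as a covariate (adjusted p = 0.641). HMOX2 had 159, 225 and 288 TPM in controls, 186, 280.1 and 330 TPM in LD* and 176, 243 and 326 TPM in HD* animals, and Log2 fold changes of 0.073 in HD* and 0.20 in LD* animals against controls (SE 0.15 each, adjusted p = 0.857 and 1.00, limma).

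Genes of glutathione synthesis and thioredoxin reduction also overlapped between the groups. GCLC had a lowest, median and highest value of 18.2, 27.0 and 35.3 TPM in controls, 20.3, 26.7 and 32.4 TPM in LD* and 9.88, 24.6 and 33.8 TPM in HD* animals. GCLM had 8.02, 9.04 and 12.0 TPM, 6.90, 8.70 and 11.0 TPM and 4.69, 8.46 and 14.3 TPM. For both, the lowest value was that of VHD 4, the highest HD* value was that of VHD 2 and the spread was largest in HD* animals. The Log2 fold changes of HD* against controls were −0.26 (SE 0.17, adjusted p = 0.706, limma) and −0.20 (SE 0.15, adjusted p = 0.706, limma). TXNRD1, which returns oxidised thioredoxin to its reduced form, had 28.4, 46.6 and 50.1 TPM in controls, 27.4, 48.3 and 56.3 TPM in LD* and 20.6, 41.7 and 49.9 TPM in HD* animals, with a Log2 fold change of −0.11 in HD* animals against controls (adjusted p = 0.811, limma) that turned to 0.016 with TMM rescaling.

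The superoxide dismutases turn superoxide into hydrogen peroxide. SOD1 had a lowest, median and highest value of 751.5, 826 and 996 TPM for controls, 733, 779 and 854 TPM for LD* and 709.6, 780.5 and 1028 TPM for HD* animals, and a 95% interval of −0.24 to 0.11 for its Log2 fold change of HD* against controls (−0.064, adjusted p = 0.777, limma; 0.063 with TMM rescaling). SOD2 had 89.3, 116 and 138 TPM, 74.5, 113 and 127 TPM and 67.1, 109 and 138 TPM, and a Log2 fold change of −0.11 (95% interval −0.39 to 0.18, adjusted p = 0.774, limma; 0.019 with TMM rescaling). SOD1 thus has the narrowest interval of the 10 genes in this comparison, and NQO1 the widest.

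The sign of small differences depended on the scaling used. Of the 10 genes, 9 had a mean below that of controls in HD* animals, where 77.8% of all genes did, and their median Log2 fold change was −0.11 beside −0.12 for all genes tested. TMM rescaling moved the median of all genes from −0.12 to −0.0067 and left 4 of the 10 below 0, namely NFE2L2, NQO1, GCLC and GCLM. With TPM as deposited, that median was −0.057 without VHD 4 and −0.15 without VHD 2. All genes at an unadjusted p under 0.05 (limma) were then 313 and 2161, against 775 with all animals. VHD 4 had the lowest TMM scaling factor of the 24 animals (0.689) and VHD 2 the highest (1.13), and that of VHD 3 was 0.838. In LD* animals 8 of the 10 lay below controls (58.1% of all genes), and 7 of 10 were lower in HD* than in LD* animals (73.3% of all genes).

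**Figure D3:**
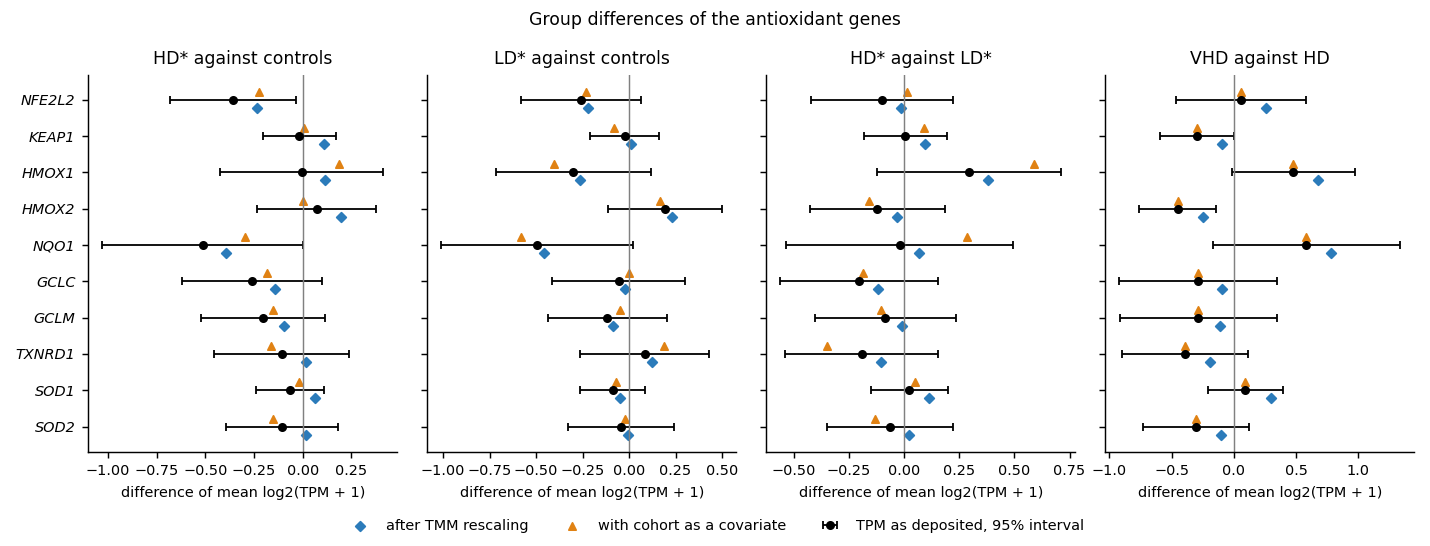
Log2 fold changes of the 10 antioxidant genes in 4 comparisons (black: TPM as deposited with 95% intervals; blue: after TMM rescaling; orange: with cohort as a covariate). The black intervals excluded 0 only for NFE2L2 between HD* animals and controls and for HMOX2 between VHD and HD animals, and neither gene passed after adjustment for all genes.

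Daily intake, tested within the drinking groups because LD* and HD* intakes do not overlap, was related to no antioxidant gene. At an adjusted p under 0.05, 0 of the 10 genes passed (0.0% of all genes), and 0 of 10 did at an unadjusted p under 0.05 (8.12% of all genes). The smallest p belonged to SOD2, with a slope of −0.31 on the log2 scale per g/kg per day (SE 0.17, adjusted p = 0.498, limma, 16 animals), and to KEAP1, with −0.19 (SE 0.11, adjusted p = 0.499, limma). In LD* animals SOD2 and intake had r = −0.61 (exact permutation p = 0.102) and rho = −0.78 (exact permutation p = 0.0287), and r = −0.52 without the 2 animals farthest from the median intake. In HD* animals r was −0.26 (exact permutation p = 0.531), and none of the 20 relations passed after adjustment (smallest adjusted p = 0.876). Cohort, tested with group in the model, likewise gave 0 of 10 genes (0.0% of all genes) and 0 of 10 at an unadjusted p under 0.05 (8.36% of all genes).

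Within the HD* group, VHD and HD animals differed in many genes, but no antioxidant gene of the 10 passed. At an adjusted p under 0.05 there were 0 of 10, where 14.6% of all 13637 genes passed, 3.23% higher and 11.4% lower in VHD animals (limma, 4 against 4). These are 441 higher and 1556 lower genes, which became 1170 higher and 1411 lower after TMM rescaling, with 0 of the 10 passing. Both categories had 2 animals in each of cohorts 5 and 7a. At an unadjusted p under 0.05 there was 1 of 10 (HMOX2, lower in VHD animals), against 32.7% of all genes. After TMM rescaling there were 2 of 10, both higher in VHD animals, against 5010 of all 13637 genes, 2423 of them higher. No gene of the 10 had values without overlap, against 23.3% of all genes, and 6 of 10 were below 0, against 65.2%.

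HMOX2 came nearest. HD animals had 239, 288, 326 and 283 TPM and VHD animals 246, 202, 207 and 176 TPM, so that 3 of the 4 VHD animals lay below every HD animal and VHD 1 was above HD 1. The Log2 fold change was −0.45 (SE 0.14, adjusted p = 0.0532, limma). It passed with cohort as a covariate (adjusted p = 0.048) or with only genes of at least 10 TPM tested (adjusted p = 0.0401), and was −0.25 with an adjusted p of 0.291 after TMM rescaling.

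HMOX1 had the opposite sign. HD animals had 13.4, 19.1, 11.2 and 11.7 TPM and VHD animals 13.5, 21.0, 24.4 and 19.9 TPM, a Log2 fold change of 0.48 (SE 0.23, adjusted p = 0.166, limma) that did not pass and was 0.68 (adjusted p = 0.0722) after TMM rescaling. KEAP1 had 73.1, 84.0, 81.9 and 80.4 TPM in HD and 60.7, 79.1, 61.6 and 59.4 TPM in VHD animals. Only VHD 2 reached the HD range, and the Log2 fold change of KEAP1 was −0.30 (SE 0.14, adjusted p = 0.155, limma), or −0.093 (adjusted p = 0.591) after TMM rescaling.

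The library of VHD 2 decided several of these calls. Without it KEAP1 (−0.39, adjusted p = 0.0286), SOD2 (−0.50, adjusted p = 0.023), TXNRD1 (−0.57, adjusted p = 0.0482), GCLM (−0.58, adjusted p = 0.0465) and HMOX2 (−0.44, adjusted p = 0.0403) were lower in VHD animals (limma, 3 against 4). The number of all genes passing then went from 1997 to 4651 of 13637, and 3972 of these were lower, so many genes moved the same way. HMOX2 also passed without VHD 1 (−0.54, adjusted p = 0.0322). VHD 4 weighed on these genes too. Without it KEAP1 was −0.26, SOD2 −0.25, TXNRD1 −0.16, GCLM −0.10 and HMOX2 −0.38, and none of them passed. GCLC turned to 0.038 without VHD 4. The lower values of TXNRD1, GCLM and GCLC in VHD animals thus rested largely on this library. Without VHD 3 the number of all genes was 476, and without VHD 1 or VHD 4 it was 2073 or 1813. Without HD 1, HD 2, HD 3 or HD 4 it was 1094, 681, 607 or 723. The other members had Log2 fold changes with all animals of 0.58 for NQO1, 0.093 for SOD1, 0.059 for NFE2L2, −0.28 for GCLM, −0.29 for GCLC, −0.31 for SOD2 and −0.39 for TXNRD1. After TMM rescaling these were 0.78 for NQO1, 0.30 for SOD1, 0.26 for NFE2L2, −0.11 for GCLM, −0.094 for GCLC, −0.10 for SOD2 and −0.19 for TXNRD1, and none passed. Leaving out VHD 2 was not combined with TMM, so the 5 lower calls hold for TPM as deposited.

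Cell markers differed between the same animals. Striatal projection neuron markers (10 of 10 genes measured, none at 0 in all animals) summed to 9430 ± 698 TPM in HD and 4921 ± 1234 TPM in VHD animals (ranges 8675 to 10250.0 and 3209 to 5944 TPM). Astrocyte markers (8 of 8) summed to 3252 ± 732 and 5883 ± 1329 TPM, microglial markers (9 of 9) to 386 ± 39.1 and 604 ± 141 TPM, oligodendrocyte markers (10 of 10) to 3489 ± 888 and 3623 ± 1328 TPM and vascular markers (6 of 7) to 162 ± 11.1 and 141 ± 21.9 TPM. Summed neuron markers of HD and VHD animals did not overlap. Nor did astrocyte (2187 to 3858 and 4921 to 7817 TPM) or microglial sums (338 to 433 and 440 to 752 TPM), the last by a narrow gap. Oligodendrocyte and vascular sums overlapped. Of all genes, 23.3% had no overlap between HD and VHD animals. The part of these marker levels in the differences of HMOX2, HMOX1 and KEAP1 was not tested.

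Across the 24 animals many of the genes varied together. Of 45 pairs, 24 were correlated at an adjusted p under 0.05 (Pearson r of log2(TPM + 1), 100000 permutations, adjusted over 45 pairs), 20 positively and 4 negatively, and 17 after TMM rescaling. The animals share TPM scaling, so a gain of one large group of transcripts lowers all others. The highest correlations were those of NFE2L2 with NQO1 (r = 0.80, rho = 0.77), GCLM with SOD2 (r = 0.79, rho = 0.72) and NQO1 with SOD1 (r = 0.77, rho = 0.71), each with the smallest p the permutations can give (1e-05, adjusted p = 0.00015). Left without the 2 animals farthest from the median of the first gene, they were 0.71, 0.68 and 0.72, and without Control 6 they were 0.77, 0.80 and 0.72. Within cohorts 5, 7a and 7b NFE2L2 and NQO1 had r of 0.91, 0.61 and 0.76, GCLM and SOD2 0.76, 0.86 and 0.87, and NQO1 and SOD1 0.86, 0.68 and 0.66. After TMM rescaling NFE2L2 with NQO1 stayed at 0.81, while GCLM with SOD2 was 0.45. The order of pairs holds for TPM as deposited. After TMM the highest was HMOX1 with SOD1 (r from 0.54 to 0.85) and the lowest TXNRD1 with SOD1 (from −0.037 to −0.83), and KEAP1 with TXNRD1 turned from 0.37 to −0.55.

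Both haem oxygenases went opposite ways across animals. HMOX1 and HMOX2 had r = −0.76 and rho = −0.74 (permutation p = 4e-05, adjusted p = 0.00036), −0.68 without the 2 farthest animals, −0.76 without Control 6 and −0.49 after TMM rescaling. Within cohorts 5, 7a and 7b r was −0.20, −0.94 and −0.45, so the relation was weak in cohort 5. The lowest HMOX1 value, 7.34 TPM in LD 8, went with the highest HMOX2 value, 330 TPM, and the highest HMOX1 value, 26.3 TPM in Control 8, with the lowest HMOX2 value, 159 TPM. The next lowest pairs were HMOX2 with NQO1 (r = −0.60, and −0.73, −0.81 and −0.24 in the 3 cohorts) and HMOX1 with TXNRD1 (r = −0.60, and 0.34, −0.85 and −0.34 in the 3 cohorts), so that the last did not hold in cohort 5.

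**Figure D4:**
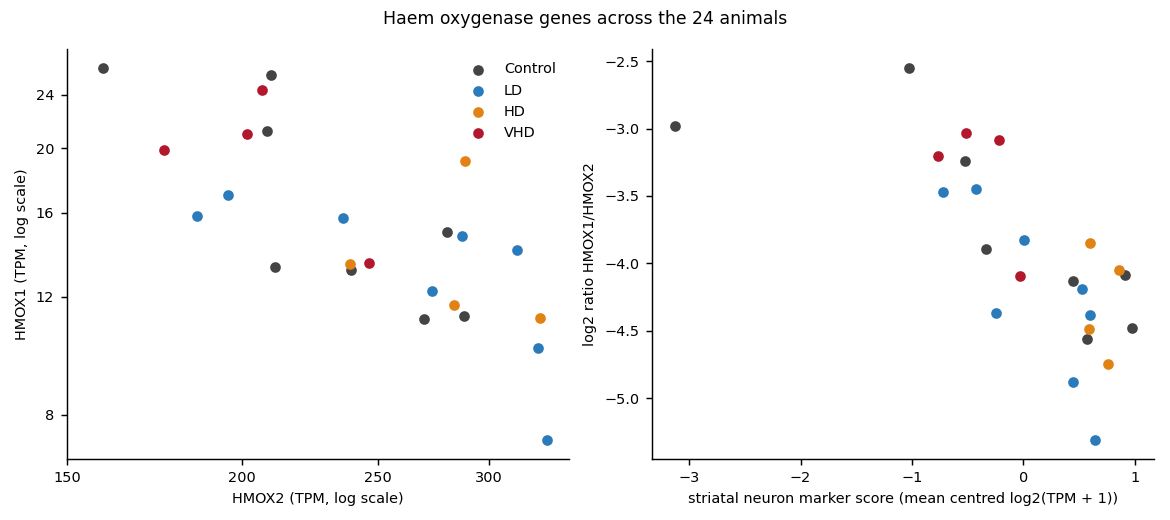
HMOX1 against HMOX2 (left, TPM on log scales) and the log2 ratio of HMOX1 to HMOX2 (difference of log2(TPM + 1)) against the striatal neuron marker score (right), 1 point per animal, coloured by drinking label. Animals with high HMOX2 had low HMOX1 (r = −0.76 over 24 animals), and Control 6 lay far to the left in neuron markers.

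The same split appeared against cell markers. A marker score is the mean of centred log2(TPM + 1) over the genes of a cell type list that averaged 1 TPM or more. For the red blood cell list only 1 gene did, so that score is a single gene. Of 60 relations between the 10 genes and 6 lists, 18 passed at an adjusted p under 0.05, 12 positive and 6 negative, and 20 passed after TMM rescaling. NQO1 and SOD1 followed astrocyte markers (r = 0.86 and 0.81, rho = 0.81 and 0.79, permutation p = 1e-05 each, adjusted p = 0.0002), HMOX1 followed microglial markers (r = 0.79, rho = 0.75, permutation p = 1e-05, adjusted p = 0.0002) and NFE2L2 followed oligodendrocyte markers (r = 0.75, rho = 0.72, permutation p = 5e-05, adjusted p = 0.0006) and astrocyte markers to a like degree (r = 0.75 to 2 decimals). Without the 2 farthest animals the first 4 were 0.80, 0.79, 0.76 and 0.67, and without Control 6 they were 0.85, 0.79, 0.79 and 0.71. In cohorts 5, 7a and 7b they were 0.76, 0.91 and 0.91 for NQO1, 0.95, 0.56 and 0.84 for SOD1, 0.84, 0.88 and 0.74 for HMOX1, and 0.90, 0.68 and 0.86 for NFE2L2. These genes were not split between astrocyte and microglial markers. HMOX1 also passed with astrocyte markers (r = 0.69), and NQO1, SOD1 and NFE2L2 with microglial markers (r = 0.66, 0.61 and 0.60). After TMM rescaling HMOX1 had r of 0.79 with astrocyte and 0.87 with microglial markers, and SOD1 0.79 and 0.77.

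With TPM as deposited, HMOX2 was the only gene of the 10 with a positive relation to neuron markers that passed. It had r = 0.65 and rho = 0.72 with the striatal neuron score (permutation p = 0.00023, adjusted p = 0.00138), 0.80 without Control 6, and −0.70 and −0.64 with the astrocyte and microglial scores. SOD1 and HMOX1 had r of −0.75 and −0.71 with the striatal neuron score (rho −0.61 and −0.73, permutation p = 6e-05 and 0.00011, adjusted p = 0.0006 and 0.000943), and −0.68 and −0.70 without Control 6. Within cohorts 5, 7a and 7b HMOX2 and neuron markers had r of 0.74, 0.94 and 0.54, SOD1 and neuron markers −0.91, −0.64 and −0.97, and HMOX1 and neuron markers −0.55, −0.93 and −0.88. Without the 2 animals farthest from the median neuron score, Control 6 and Control 8, the 3 relations were 0.76, −0.63 and −0.63. NQO1 and NFE2L2 also passed with the neuron score, at r of −0.65 and −0.58. After TMM rescaling the order changed, with −0.71 for NFE2L2, −0.68 for NQO1, −0.56 for SOD1 and −0.52 for HMOX1. GCLC passed with oligodendrocyte markers (r = 0.57, adjusted p = 0.0145, and r = 0.48 without the 2 farthest animals), and KEAP1, GCLM and SOD2 passed with none of the 6 lists. TXNRD1 passed with vascular markers (r = 0.53, adjusted p = 0.0271), but that relation rested on LD 5 and VHD 4, without which r was 0.14. After TMM rescaling it was −0.13, and TXNRD1 passed instead with striatal neuron (r = 0.50, adjusted p = 0.0391), astrocyte (r = −0.67, adjusted p = 0.00157) and microglial markers (r = −0.68, adjusted p = 0.00157, 100000 permutations).

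**Figure D5:**
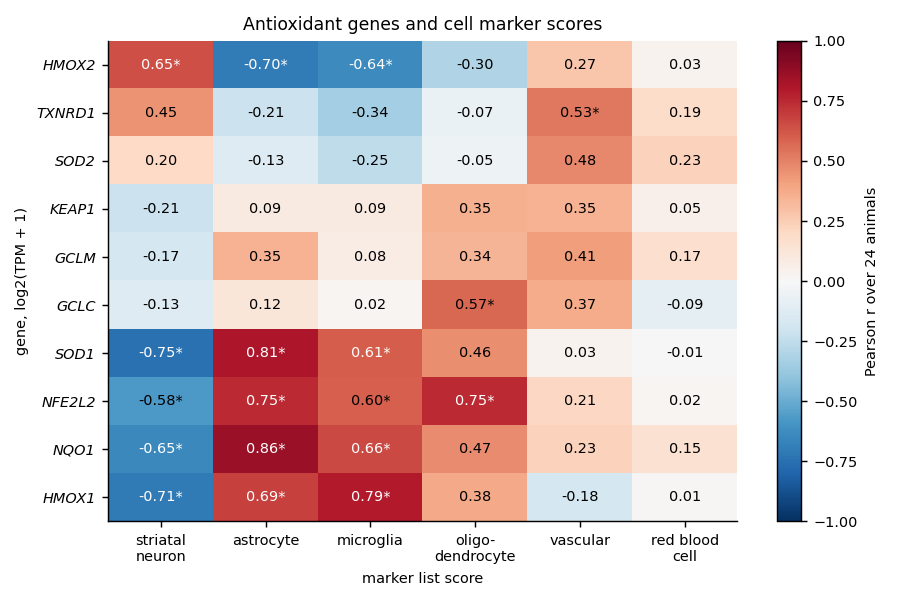
Pearson r over 24 animals between each antioxidant gene, as log2(TPM + 1), and the score of each cell marker list (red positive, blue negative; asterisk: adjusted p under 0.05 over 60 relations, 100000 permutations). HMOX2 is positive with striatal neuron and negative with astrocyte and microglial markers, and SOD1, NFE2L2, NQO1 and HMOX1 show the opposite signs. The red blood cell score rests on 1 gene.

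The genes most like 4 of the members, compared over the 24 animals with the 9197 genes that averaged 10 TPM or more, are given as a description. Closest to NFE2L2 were ITGB1 (r = 0.94), SS18 (0.93) and CCDC50 (0.92), and closest to NQO1 were IFIT3 (r = 0.90), EPS8 (0.89) and GNAI3 (0.87). HMOX1 was closest to FTL (r = 0.87), the ferritin light chain that stores iron, to CD63 (0.87) and to KIF1C (0.86). SOD2 was closest to CEP41 (r = 0.92), ZFYVE9 (0.92) and SMCR7L (0.91). After TMM rescaling these SOD2 relations were 0.76, 0.75 and 0.78, while those named for NFE2L2, NQO1 and HMOX1 were 0.88 to 0.92.

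A wider set of 72 antioxidant genes, 70 of them averaging 1 TPM or more, held no gene that passed between alcohol groups. At an adjusted p under 0.05, 0 of 70 passed in HD* or LD* animals against controls and in HD* against LD* animals, and 1, 2 and 0 did so before adjustment, beside 0.0% of all genes in each comparison and 5.68%, 2.84% and 1.08% before adjustment. Their median Log2 fold changes were −0.094, −0.061 and −0.035, beside −0.12, −0.025 and −0.084 for all genes. The smallest p between HD* animals and controls belonged to BACH1, a repressor that competes with NRF2 for its sites, at 4.51 ± 0.95 TPM in HD* and 5.90 ± 1.11 TPM in control animals (Log2 fold change −0.33, SE 0.14, adjusted p = 0.706, limma). IDH1, which makes NADPH, and CUL3, the ligase scaffold that works with KEAP1, followed with −0.30 and −0.26. For LD* animals against controls these were MSRB2 (−0.22), which repairs oxidised methionine, SLC7A11 (−0.49), the cystine importer that feeds glutathione synthesis, and PRDX6 (−0.25), a peroxiredoxin. For HD* against LD* animals they were the glutathione transferase GSTM2 (−0.33), PARK7 (0.16), which encodes the redox-sensitive protein DJ-1, and the peroxiredoxin PRDX5 (0.18). None passed.

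Between VHD and HD animals 11 of these 70 genes passed, 6 higher and 5 lower in VHD animals, beside 14.6% of all genes (3.23% higher and 11.4% lower). After TMM rescaling 13 passed, 10 higher and 3 lower, beside 2581 of all 13637 genes (1170 higher and 1411 lower). The 11 are named because they passed, after their values were seen. All 5 genes of the glutathione list that passed, of 20 tested, were higher in VHD animals. The glutathione transferase GSTM3 had 363, 368, 374 and 334 TPM in HD and 632, 615, 685 and 543 TPM in VHD animals (Log2 fold change 0.78, SE 0.12, adjusted p = 0.00489, limma), and GSTM2 had 84.9 to 94.6 and 132 to 167 TPM (0.67, adjusted p = 0.00821). These transferases are close paralogs. By the study's methods the alignment kept only uniquely placed reads, so reads that fit both equally were left out. GSTO1 (0.48), GPX4 (0.47), which clears lipid peroxides, and GPX1 (0.75) completed the group, and FTL was higher by 0.69, from 2061 to 2332 TPM in HD to 2710.3 to 4286 TPM in VHD animals. After TMM rescaling FTL and GPX4 did not pass (adjusted p = 0.0581 and 0.0526).

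The 5 genes lower in VHD animals belonged to the lists of NRF2 control (3 of 15) and of NADPH and quinone reduction (2 of 11), beside 11.4% of all genes lower. After TMM rescaling these lists had 2 lower of 15, and 1 higher and 1 lower of 11, beside 1170 higher and 1411 lower of all 13637 genes. NFE2L1, the relative of NRF2 that controls proteasome genes, had 239, 251, 264 and 259 TPM in HD and 175, 203, 137 and 122 TPM in VHD animals (Log2 fold change −0.69, SE 0.16, adjusted p = 0.0172, limma). BTRC (−0.86), part of a ligase that can degrade NRF2 independently of KEAP1, PGAM5 (−0.40), a mitochondrial phosphatase that binds KEAP1, the exporter ABCC1 (−0.92) and transketolase TKT (−0.61) were the others. HD and VHD animals did not overlap for any of these 5 genes, which were picked because they passed, and 23.3% of all genes had no overlap. GSTM3 and GSTM2 passed whichever of the 8 animals was left out (largest adjusted p = 0.0245 and 0.039), and each of the other 9 genes missed the threshold without HD 3, without HD 4 or without VHD 3. PGAM5 and TKT did not pass after TMM rescaling (adjusted p = 0.307 and 0.117). No gene of the thioredoxin and peroxiredoxin list (14 tested) or of superoxide and peroxide removal (3 tested) passed with TPM as deposited, and 2 and 1 passed, higher in VHD animals, after TMM rescaling. The neuron, astrocyte and microglial marker levels given above for VHD and HD animals apply to these genes too, and their part was not tested.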

How the data were processed

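PolyA-selected RNA-Seq libraries of the NAcc core of 24 animals were aligned with STAR 2.5.2b and counted on genes with HTSeq 0.6.1p1 by the authors (versions per the submitters' processing notes), on the MacaM assembly per the study's methods, which also state DESeq2. The deposited values were treated as TPM, although their name speaks of normalized counts: each animal's column sums to between 999998 and 1000000. Values not corrected for gene length could have the same sum, so the order of levels between genes rests on this reading. How TPM were made from counts is not given in the sources used here, and the public record and the paper differ on library strand and read pairing.

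Here log2(TPM + 1) of the 13637 genes averaging 1 TPM or more (of 17208) was tested with limma 3.58.1 in R 4.3.3 (empirical Bayes with trend), with Benjamini-Hochberg adjustment over all genes tested and a threshold of 0.05. Adjusted p-values given for single genes come from limma. A Log2 fold change is a difference of mean log2(TPM + 1), and so is too small for weakly expressed genes. Models had 3 groups and 24 animals, or the 8 HD* animals, or cohorts 5 and 7a with an interaction, or the 16 drinkers with a common slope on intake. Ratios within animals were compared by exact permutation and correlations by 100000 permutations (Python 3.11.15, numpy 2.4.6, scipy 1.17.1, pandas 2.3.3, matplotlib 3.10.9). TMM (30% of M and 5% of A trimmed) was applied to TPM as an alternative. Other alternatives were pseudocounts of 0.1 and 8, no filter or 10 TPM, cohort as a covariate or single cohorts, and each animal left out. The limma fits were tested on simulated data.

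Groups, cohorts and intakes came from the sample labels, and animals are numbered within a label only as names. The animals are unrelated per the study, each gave 1 library, and p-values measure the spread between animals. Members and gene lists were chosen with earlier results of these data known. Named genes are the 10 members, the 3 other antioxidant genes with the smallest p in each group comparison, the 3 genes most correlated with each of NFE2L2, HMOX1, NQO1 and SOD2, and the 3 highest and lowest member pairs. Of the marker lists, PECAM1 of the vascular and 3 of 5 red blood cell genes had no row. All 10 members matched a symbol in the RefSeq annotation of T2T-MMU8v2.0, a different assembly from MacaM, so no coordinates or sequences are given.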

Additional observations from a re-analysis of the deposited data

Results flagged for a closer look

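Of 50 sets of values (10 genes in 5 groups), each tested for a sample far from the others, 5 were marked, and chance alone marks about 1 in 20. KEAP1 in Control 6 was 93.2 TPM, where the other controls had 63.2 to 76.3 TPM. KEAP1 in VHD 2 was 79.1 TPM, where the other VHD animals had 59.4 to 61.6 TPM. NQO1 in VHD 2 was 61.9 TPM, where the other HD* animals had 11.3 to 29.2 TPM. SOD1 in VHD 2 was 1028 TPM, where the other HD* animals had 709.6 to 829.9 TPM. SOD2 in HD 4 was 99.7 TPM, where the other HD animals had 118.0 to 121 TPM. The astrocyte marker score of VHD 2 was 0.67, the highest of the 24 animals.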

How the results depend on the processing

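No paired analysis was possible because replicate numbers were given here in order and the labels carry none. None of the 10 antioxidant genes passed in HD* or LD* animals against controls or in HD* against LD* animals under any alternative run, whereas HMOX2 passed between VHD and HD animals under 2 that kept all animals (cohort as a covariate, and genes of 10 TPM or more), and the count of all genes passing between VHD and HD animals stayed within 1.5 times of 1997 under every alternative that kept all animals. With 1 animal left out it ran from 476 to 4651, the count for the intake slope from 0 to 1 (1 without LD 2), and that of ratio comparisons from 0 to 1 (1 without VHD 2). TMM rescaling moved the median difference of all genes from −0.12 to −0.0067 between HD* animals and controls and from −0.17 to 0.0058 between VHD and HD animals, and member pairs passing from 24 to 17, with GCLM and SOD2 lost (adjusted p = 0.068, 100000 permutations) and the order of the other pairs changed. The cause of the changes of sign was not tested. A TPM column holds no depth, so the precision of a value cannot be given.

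For HD* animals against controls, the log2 difference in cohort 5 alone was 0.011 for GCLC, 0.14 for GCLM, 0.37 for HMOX1, 0.12 for IDH1, 0.15 for KEAP1, 0.091 for NFE2L2, 0.031 for NQO1 and 0.095 for SOD1. TMM rescaling gave 0.12 for HMOX1, 0.11 for KEAP1, 0.063 for SOD1, 0.019 for SOD2 and 0.016 for TXNRD1. HMOX1 and KEAP1 were 0.18 and 0.0093 with cohort as a covariate and 0.16 and 0.056 with cohorts 5 and 7a only. Cohort and TMM together, chosen after seeing the data, gave 0.31 for HMOX1, 0.14 for KEAP1 and 0.11 for SOD1. For LD* animals against controls GCLC was 0.0020 with cohort and 0.0070 with both, and KEAP1 was 0.013 with TMM. For HD* against LD* animals NQO1 was 0.067 with TMM, 0.28 with cohort, 0.10 in cohort 7a and 0.40 with both, NFE2L2 was 0.011 with cohort and 0.13 with both, GCLM was 0.00019 with both, SOD2 was 0.024 with TMM, and KEAP1 and SOD1 were −0.037 and −0.0060 in cohort 7a. With TMM the difference of the HD* effect between cohorts was 0.032 for TXNRD1, and the intake slope 0.13 for SOD1.

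Leaving out 1 animal at a time turned the sign in 23 results. HD* against controls then ran from −0.086 to 0.090 for HMOX1, −0.0020 to 0.14 for HMOX2, −0.050 to 0.032 for KEAP1 and −0.19 to 0.021 for TXNRD1, and LD* against controls from −0.053 to 0.026 for KEAP1 and −0.085 to 0.032 for SOD2. HD* against LD* ran from −0.19 to 0.012 for GCLM, −0.026 to 0.045 for KEAP1, −0.21 to 0.12 for NQO1, −0.028 to 0.048 for SOD1 and −0.14 to 0.021 for SOD2. VHD against HD ran from −0.52 to 0.038 for GCLC, −0.19 to 0.23 for NFE2L2 and −0.011 to 0.17 for SOD1. Intake slopes ran from −0.057 to 0.090 for GCLC, −0.039 to 0.13 for NFE2L2, −0.30 to 0.072 for NQO1 and −0.022 to 0.11 for SOD1. Among log2 ratios, HD* against controls ran from −0.13 to 0.0051 for GCLC/GCLM, −0.20 to 0.092 for HMOX1/HMOX2 and −0.11 to 0.035 for SOD2/SOD1, LD* against controls from −0.018 to 0.13 for SOD2/SOD1, and HD* against LD* from −0.33 to 0.0020 for TXNRD1/NQO1.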
